A study of Mus musculus with 12 samples.

Results

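The ionotropic kainate receptor genes Grik2, Grik3 and Grik5 and the metabotropic glutamate receptor genes Grm2, Grm3, Grm4, Grm5 and Grm7 were followed in cultured mouse cerebellar granule cells. All array probe sets annotated to exactly 1 of these 8 symbols were taken, which gave 13 of 45037 non-control probe sets and 8 of 18193 genes. A probe set entered the tests if 3 or more of the 12 arrays gave it a log2 intensity above 4. This held for 10 of the 13 and for 23044 probe sets in all, and every one of the 8 genes had at least 1 tested probe set.

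The cultures came from lethargic mice on the 129/SvJ background, whose Cacnb4 gene, which encodes a calcium channel subunit called β4, is mutated. Cells of postnatal day 7 pups received a lentiviral construct for β4a, β4b, β4e or eGFP during the first 12 hours after plating, with 3 arrays per construct. The antimitotic Ara-C was added 24 hours after plating, and RNA was taken after 9 days in vitro and hybridised to Affymetrix 3′ expression arrays, 1 per sample. All 4 groups, the eGFP controls included, were lethargic cells, so no group with an intact Cacnb4 gene enters the comparisons, and the promoter of the constructs is not spelled out in the labels. The growth protocol names BALB/c mice as well, but each sample is labelled lethargic and 129/SvJ. The titles number the arrays of each group 1 to 3 without saying what a number marks or whether the replicates were separate cultures. The p-values therefore measure only the spread between these samples, which may be technical. Values are deposited log2 intensities made with GCRMA, a method that corrects background from probe sequence, normalizes between arrays and gives 1 value per probe set. Levels of different probe sets are not read as amounts of RNA relative to each other. They serve only to rank probe sets by brightness and to sum markers, where bright sets weigh most.

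Kainate receptors are glutamate-gated cation channels, in which GluK2 or GluK3 (Grik2, Grik3) can form channels and GluK5 (Grik5) joins them as a high-affinity partner. Metabotropic glutamate receptors are G-protein-coupled: group I (Grm5) acts through Gq and phospholipase C, whereas group II (Grm2, Grm3) and group III (Grm4, Grm7) act mainly through Gi/o proteins that inhibit adenylyl cyclase. In the cerebellum, mGluR4 sits on the parallel fibre terminals of granule cells, mGluR2 is known from Golgi cells, and mGluR3 is found in glia as well as neurons.

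The cultures carried the granule cell transcripts Gabra6 (13.58 to 14.02) and Neurod1 (14.22 to 14.42), and all 10 granule markers on the array were tested. The total of their unlogged intensities was 96792 to 102877 in replicate 1, 90731 to 98426 in replicate 2 and 92288 to 98801 in replicate 3. The brightest markers weigh most in these totals, and some single markers shifted more. Zic2 averaged 12.35, 11.16 and 10.65 in replicates 1, 2 and 3, and Pax6 11.28, 10.37 and 10.92. Fat2 was lowest in replicate 1, at 11.27, 12.40 and 12.32. Markers of other cell types passed the level filter too. These were all 12 of astrocytes and Bergmann glia, 9 of 9 of the oligodendrocyte lineage, 6 of 8 of microglia and 6 of 6 of fibroblasts. So did 4 of 6 of inhibitory interneurons, 3 of 4 of Purkinje cells and 2 of 3 of unipolar brush cells, but 0 of 4 of endothelium. As 10983 of the 18193 genes had a probe set that passed the filter, passing it does not show that a cell type was present. Pcp2 of Purkinje cells (3.32 to 3.73) and Lmx1a of unipolar brush cells (2.45 to 2.90) stayed below 4. A tested Cacnb4 probe set stood at 11.80 to 12.24, with group means of 12.03 for β4a, 11.96 for β4b, 11.98 for β4e and 12.09 for eGFP. Whether it matches the viral constructs was not tested, so it does not check the labels. In this bulk RNA, fewer cells of a type and less RNA per cell cannot be told apart.

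Promoter windows are shown for Grm3 and Grik3, the 2 members with the largest replicate 1 minus replicate 2 differences among the 6 that have a window in the RefSeq table (GRCm38.p6, 250 bases before to 50 after the start). Capitals mark an E-box, CANNTG, and both windows are read 5′ to 3′ on the gene's strand. The Grm3 window lies at chr5:9725303-9725602 on the minus strand and the Grik3 window at chr4:125490446-125490745 on the plus strand.
Grm3: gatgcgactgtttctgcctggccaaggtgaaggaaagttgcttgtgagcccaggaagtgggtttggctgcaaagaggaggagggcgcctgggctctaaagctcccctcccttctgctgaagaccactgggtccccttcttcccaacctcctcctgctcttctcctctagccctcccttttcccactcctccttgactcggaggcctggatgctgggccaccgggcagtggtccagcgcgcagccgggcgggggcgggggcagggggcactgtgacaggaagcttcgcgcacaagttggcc
Grik3: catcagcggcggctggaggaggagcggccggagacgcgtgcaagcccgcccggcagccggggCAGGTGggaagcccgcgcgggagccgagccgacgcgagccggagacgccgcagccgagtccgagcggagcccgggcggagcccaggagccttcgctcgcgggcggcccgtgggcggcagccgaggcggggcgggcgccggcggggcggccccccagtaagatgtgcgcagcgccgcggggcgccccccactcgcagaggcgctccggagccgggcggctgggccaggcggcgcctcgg
The E-box occurs in 0 places in the Grm3 window and 1 in the Grik3 window, and 72.3% of 32851 promoter windows of this length hold at least 1. The letters TGACG, searched on both strands as the E-box was, occurred in neither, against 20.8% of all windows. GC content was 63.7% for Grm3 and 82.0% for Grik3. These matches describe the letters only.

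**Figure D1:**
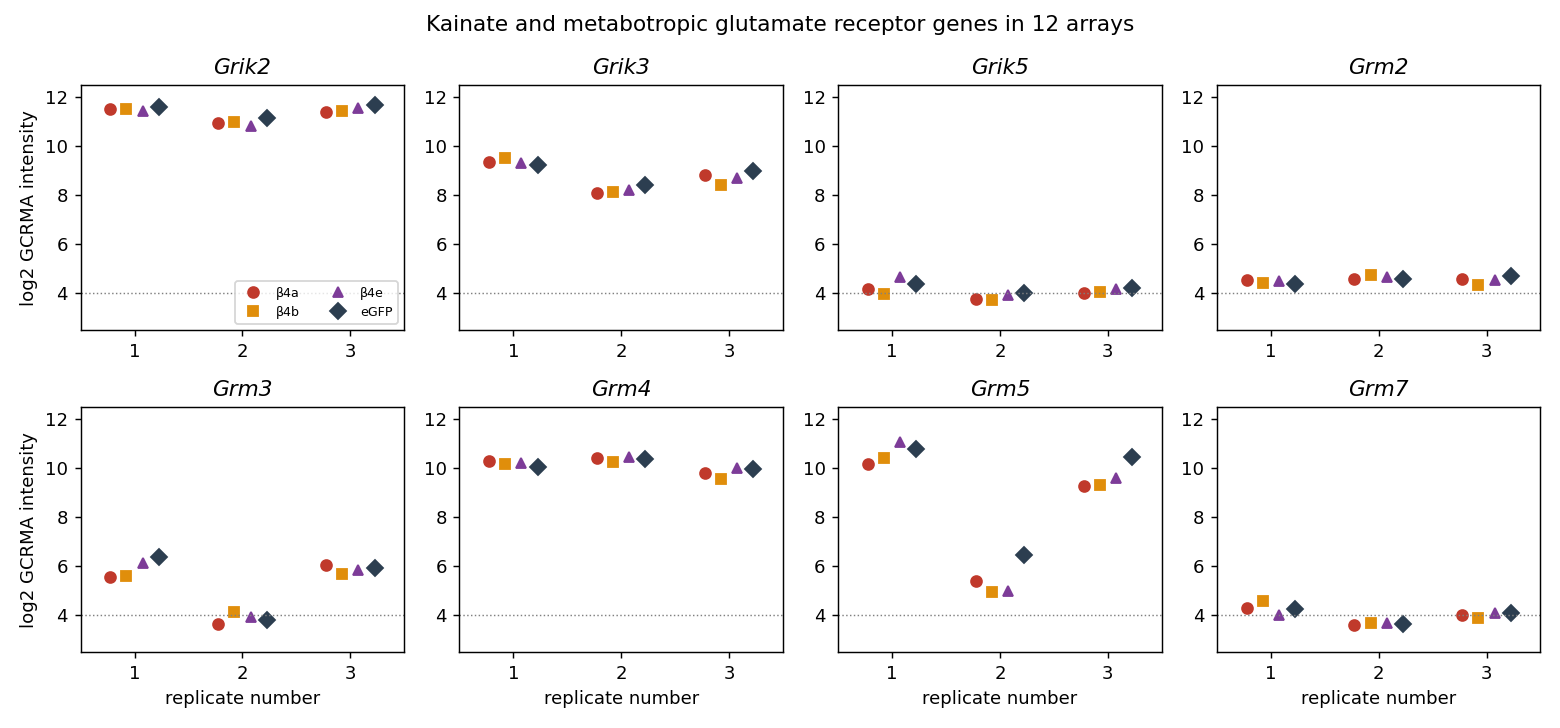
Log2 GCRMA intensity (y) of the brightest probe set of each gene in each of the 12 arrays, by replicate number (x), with 1 symbol per construct and a dotted line at 4. For Grm5 the 4 arrays of replicate 2 lie between 4.94 and 6.46 and the other 8 between 9.27 and 11.06, whereas Grm4 stays between 9.55 and 10.45.

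Of the kainate receptor genes, Grik2, which encodes the channel-forming subunit GluK2, had 11.51, 11.53, 11.45 and 11.62 in replicate 1 with β4a, β4b, β4e and eGFP. In replicate 2, with the constructs in the same order, the values were 10.95, 11.00, 10.83 and 11.14. Replicate 3 had 11.39, 11.45, 11.56 and 11.67. The 4 arrays of replicate 2 were the lowest, with no overlap with the other 8, while within each replicate number eGFP was the highest array. A second, dimmer Grik2 probe set ran from 4.01 to 4.94, close to the level filter.

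Grik3, encoding GluK3, a channel-forming subunit of low glutamate affinity, had 9.35, 9.53, 9.32 and 9.25 in replicate 1 with β4a, β4b, β4e and eGFP. Its replicate 2 values were 8.09, 8.12, 8.21 and 8.43, and those of replicate 3 were 8.81, 8.41, 8.70 and 9.00. Replicate 1 lay above both other numbers without overlap, while replicates 2 and 3 overlapped between 8.41 and 8.43. The other Grik3 probe set ran from 3.08 to 3.28 and was not tested.

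The brightest probe set of Grik5, the gene of the high-affinity subunit GluK5, passed 4 in 8 of 12 arrays. It had 4.20, 3.96, 4.65 and 4.37 in replicate 1 with β4a, β4b, β4e and eGFP. The corresponding levels were 3.77, 3.74, 3.92 and 4.03 in replicate 2 and 4.03, 4.05, 4.16 and 4.20 in replicate 3. Replicate 1 overlapped with both other numbers, and replicates 2 and 3 met at 4.03 without overlap.

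The group I receptor gene Grm5, which encodes mGluR5, had the widest range of values over the 12 arrays among the members. Replicate 1 had 10.16, 10.43, 11.06 and 10.78 with β4a, β4b, β4e and eGFP. Replicate 2 had 5.41, 4.94, 4.98 and 6.46, and replicate 3 had 9.27, 9.32, 9.60 and 10.46. All 4 arrays of replicate 2 were far below the other 8, whatever the construct, and within replicates 2 and 3 eGFP was the highest array. The dimmer Grm5 probe set had 9.43, 9.59, 10.62 and 10.63 in replicate 1, 5.58, 5.15, 5.01 and 6.95 in replicate 2, and 9.21, 9.18, 9.27 and 9.77 in replicate 3. It repeated the low replicate 2 arrays without overlap.

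Of the group II receptors, Grm3, encoding mGluR3, had 5.56, 5.62, 6.14 and 6.39 in replicate 1 with β4a, β4b, β4e and eGFP. The 4 arrays of replicate 2 stood at 3.65, 4.12, 3.94 and 3.80, mostly below the level filter, and those of replicate 3 at 6.07, 5.70, 5.83 and 5.92. Replicate 2 was again the lowest without overlap, and replicates 1 and 3 overlapped. Grm2, encoding mGluR2, was nearly level: its 12 values lay between 4.36 and 4.73, and replicate means were 4.46 ± 0.07, 4.65 ± 0.07 and 4.55 ± 0.14 (SD, n = 4 each) for numbers 1, 2 and 3.

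For the group III gene Grm4, which encodes the granule cell autoreceptor mGluR4, replicate 1 had 10.31, 10.19, 10.21 and 10.05 with β4a, β4b, β4e and eGFP. Levels were 10.43, 10.27, 10.45 and 10.39 in replicate 2 and 9.81, 9.55, 10.01 and 9.98 in replicate 3. Replicate 3 was the lowest here, without overlap with the others, and the arrays of replicates 1 and 2 overlapped. Grm7, encoding mGluR7, a receptor of presynaptic active zones, had 4.30, 4.59, 4.02 and 4.26 in replicate 1, 3.61, 3.71, 3.70 and 3.65 in replicate 2, and 4.02, 3.90, 4.10 and 4.10 in replicate 3. Replicate 2 was lowest without overlap, at levels below the filter. The other Grm7 probe sets ran from 2.47 to 2.92 and from 2.55 to 2.81 and were not tested.

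The arrays that share a replicate number were compared with each other in a model that also held a term for construct. These tests compare numbers and not conditions. Grm5 stood at 10.61 ± 0.40 in replicate 1, 5.45 ± 0.71 in replicate 2 and 9.66 ± 0.55 in replicate 3 (SD, n = 4 each). Its replicate 1 minus replicate 2 difference was 5.16 ± 0.23 on the log2 scale (SE), 35.7-fold, with an adjusted p of 1.485e-06 from limma, and it was the sixth largest by size (rank 6 of 23044). Only 32 probe sets differed by over 16-fold in this contrast, and the dimmer Grm5 set, at 4.40 ± 0.28 and 21.1-fold (adjusted p 6.032e-06), was also among them. Replicate 2 minus replicate 3 was -4.21 ± 0.23 for Grm5 (adjusted p 8.739e-06) and -3.68 ± 0.28 for the dimmer set (5.623e-05). Replicates 1 and 3 differed much less, by 0.94 ± 0.23 (adjusted p 0.008775) and, for the dimmer set, by 0.71 ± 0.28 (0.062).

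Grm3 came next, at 5.93 ± 0.41 in replicate 1, 3.88 ± 0.20 in replicate 2 and 5.88 ± 0.15 in replicate 3. It was 4.15-fold higher in replicate 1 than in replicate 2 (adjusted p 2.512e-05) and lower in replicate 2 than in replicate 3 by 2.01 on the log2 scale, a difference of -2.01 ± 0.18 (adjusted p 0.0001229). Because the replicate 2 mean lies below 4, these sizes rest on intensities near background and are approximate. Between replicates 1 and 3 the Grm3 difference was 0.05 ± 0.18 (adjusted p 0.854).

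Both main channel-forming kainate subunits were also lower in replicate 2. Grik3 differed by 1.15 ± 0.13 between replicates 1 and 2 (adjusted p 8.794e-05), by 0.63 ± 0.13 between replicates 1 and 3 (0.003207) and by -0.52 ± 0.13 between replicates 2 and 3 (0.01415). Grik2 differed by 0.55 ± 0.08 between replicates 1 and 2 (0.0003749) and by -0.54 ± 0.08 between replicates 2 and 3 (0.001152), but by 0.01 ± 0.08 between replicates 1 and 3 (0.93). Its dimmer set differed by 0.26 (0.0672), -0.28 (0.05559) and -0.54 (0.005047) in the contrasts 1 minus 2, 1 minus 3 and 2 minus 3. Grik5 differed by 0.43 ± 0.10 between replicates 1 and 2 (0.005716), and its other 2 contrasts did not pass. Its replicate 2 mean (3.86) lies below 4, so this size is approximate. Without β4a replicate 2 or β4a replicate 3, the Grik3 difference between replicates 2 and 3 no longer passed (adjusted p 0.05096 and 0.05212). Without β4e replicate 1, the Grik5 difference between these numbers passed (0.0385).

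Grm4 was the 1 member called higher in replicate 2 than in replicate 3, at 0.55 ± 0.10 (adjusted p 0.003403), and was 0.35 ± 0.10 higher in replicate 1 than in replicate 3 (0.01627). The second of these calls was lost without β4a replicate 3 (0.05632), β4b replicate 1 (0.06047) or β4b replicate 3 (0.06291), and without all 4 arrays of replicate 2 (0.06305). Between replicates 1 and 2 the Grm4 difference was -0.19 ± 0.10 (0.1302). Grm7 had a replicate 2 mean of 3.66, below 4, so its sizes here are approximate. It was higher in replicate 1 than in replicate 2 by 0.63 ± 0.12 (0.001576). Its -0.36 ± 0.12 between replicates 2 and 3 (0.03865) was lost in 7 of 12 fits that left out 1 array, those without eGFP, β4a or β4e replicate 2 or 3 or without β4b replicate 2, at adjusted p 0.05505 to 0.1182. Its 0.26 ± 0.12 between replicates 1 and 3 (0.0883) passed without β4e replicate 1 (0.02244). Grm2 passed in none of the contrasts between numbers (adjusted p 0.111 to 0.4657), nor in the test for any difference among them (0.2124).

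**Figure D2:**
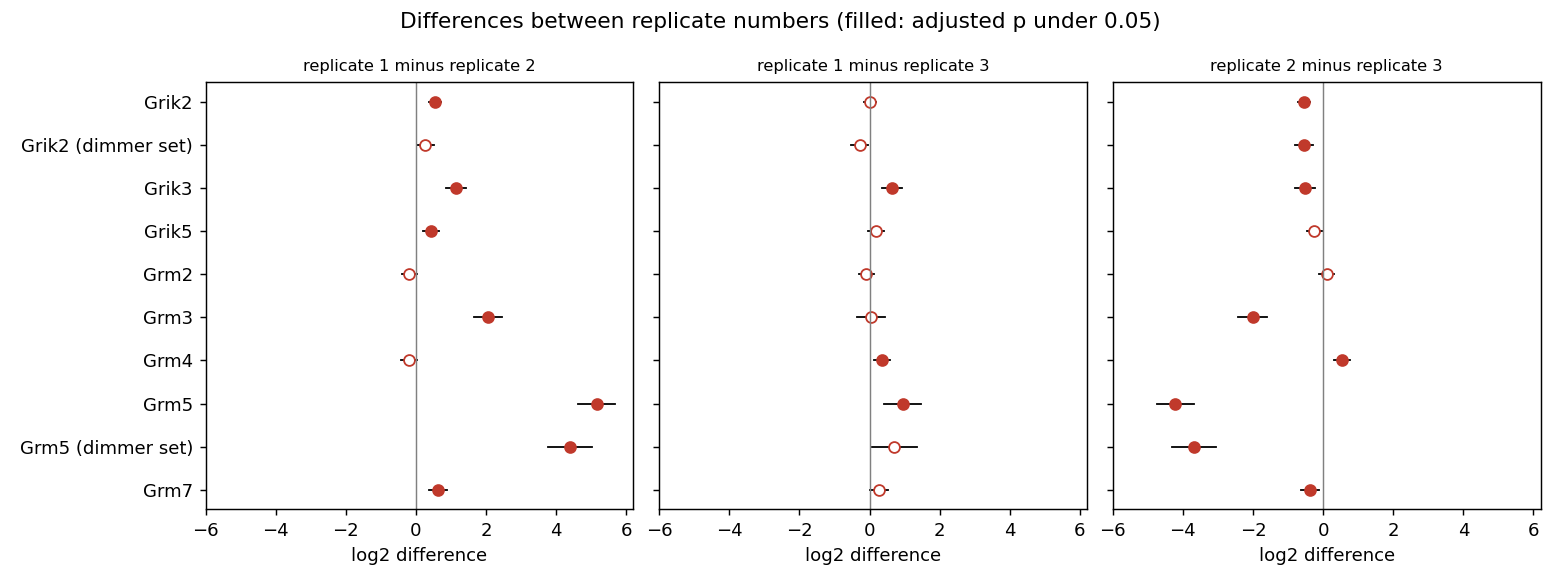
Log2 difference (x) between replicate numbers for the 10 tested probe sets, with 95% confidence intervals as bars. Filled points passed at an adjusted p of 0.05, and the Grm5 sets stand far from 0 in both contrasts that hold replicate 2, at 5.16 and -4.21 for the brighter one.

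In counts, 7 of the 10 tested member probe sets were higher in replicate 1 than in replicate 2 and 0 lower, where 53.2% of all tested probe sets passed (29% higher, 24.2% lower). Between replicates 1 and 3, 3 of 10 passed, all higher in replicate 1, against 48.2% of all (28.5% higher, 19.8% lower). Between replicates 2 and 3, 7 of 10 were lower and 1 higher in replicate 2, against 32.3% of all (15.7% lower, 16.7% higher). Some difference among the numbers was called for 9 of 10, against 65.2% of all. The 4 arrays of replicate 2 lay below the other 8 for 5 of 10 member sets (Grm3, Grm7, both sets of Grm5 and the brighter of Grik2), against 9.72% of all, and above them for 0 of 10, against 8.08%. Passing the level filter through the higher numbers favours such an order for the sets near 4, which are Grik5, Grm3 and Grm7. The 10 sets stand for 8 genes that were chosen with earlier results of these data known, so the member counts are descriptive only.

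Of the 10 granule markers, 3 were called higher and 1 lower in replicate 1 than in replicate 2. Against replicate 3, 2 were called higher and 2 lower in replicate 1, and 3 higher and 2 lower in replicate 2. Markers of other cell types moved between the numbers too. The total unlogged intensity of the 4 tested interneuron markers was 13144 to 15086 in replicate 1, 5654 to 6888 in replicate 2 and 8082 to 10814 in replicate 3. Of its members, the GABA-synthesis genes Gad1 and Gad2 averaged 13.61 and 9.24 in replicate 1, 12.49 and 7.89 in replicate 2, and 13.10 and 8.34 in replicate 3. The vesicular GABA transporter gene Slc32a1 had the same order, at 9.54, 6.83 and 8.46. Lgi2 did not: it averaged 7.46 in replicate 1, 7.88 in replicate 2 and 6.09 in replicate 3, and was lower in replicate 1 than in replicate 2 (-0.42, adjusted p 0.03616). Slc6a5 and Sst were not tested. The 3 tested Purkinje markers totalled 407 to 813 in replicate 1, 383 to 616 in replicate 2 and 456 to 585 in replicate 3, and Pcp2 was not tested. Pvalb, the brightest of the 3, makes up most of these totals, with means of 8.53, 8.99 and 8.92, and its difference between replicates 1 and 2 did not pass (-0.46, 0.08324). The other two, the calcium-binding protein gene Calb1 (6.33, 3.77 and 4.36) and Car8 (6.49, 3.64 and 5.02), were both higher in replicate 1 than in replicate 2, by 2.56 (2.169e-05) and 2.85 (6.934e-06), sizes that are approximate because the replicate 2 means lie below 4. For the 6 fibroblast markers the totals were 447 to 967, 204 to 255 and 108 to 151, and for the 9 oligodendrocyte markers 29030 to 30265, 23443 to 26039 and 18821 to 22257. Of the fibroblast markers, Col1a1, Lum and Pdgfrb averaged above 4 in replicate 1 only, an order that the level filter favours. Dcn averaged 8.42, 6.91 and 3.75 in replicates 1, 2 and 3. Astrocyte totals overlapped, at 24147 to 29655, 16107 to 27330 and 18856 to 47546, as did those of the 6 tested microglial markers, at 1033 to 1550, 1063 to 1787 and 1523 to 1890. The part of these shifts in the differences of Grm5, Grm3 and Grik3 was not tested.

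The genes whose pattern over the 12 arrays was most like that of each member were sought by Pearson correlation, as a description over arrays that share 3 replicate numbers. For Grm5 they were Ppp1r14c, an inhibitor of protein phosphatase 1 (r = 0.99), and Tmtc2 (0.99). After the mean of each number was taken off, r was 0.90 and 0.89. Grik3 lay closest to Gad2 and Gad1 (0.98 each, and 0.86 and 0.83 after the means were taken off). Grm3 lay closest to Socs2 and Hsbp1 (0.98 each), with 0.66 and 0.76 left within numbers, the lowest pair among the members. For Grik2 the closest were Nectin3 and Rbm20 (0.98 each, then 0.82 and 0.91), and for Grm4 Nolc1 and Mrps11 (0.96 and 0.93, then 0.85 and 0.86). The dim sets lay closest to Mbd6 and Tgs1 for Grik5 (0.95 and 0.93), Adam11 and Tyk2 for Grm2 (0.95 and 0.92), and Cenpw and Rps6ka6 for Grm7 (0.96 each).

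Other genes of glutamate signalling were described over the same contrast, replicate 1 minus replicate 2, where the median over 10983 genes was 0.11 and 33.9% of them passed as higher and 16.4% as lower. Of the AMPA, NMDA and delta receptor subunits, 6 of 8 tested were higher in replicate 1 and 1 lower, with a median of 0.95. Grin2b, the juvenile NMDA receptor subunit, stood at 7.42 in replicate 1, 2.99 in replicate 2 and 5.08 in replicate 3, a difference of 4.43 between the first pair (adjusted p 2.699e-06). The AMPA subunit gene Gria3 was higher by 1.73 (1.255e-05), whereas Grin2c, the subunit of mature granule cells, was lower, at -0.53 (0.003682). Of glutamate supply and uptake genes, 3 of 9 were higher and 1 lower (median 0.21), shares close to those over all genes. The vesicular transporter Slc17a6 differed by 4.52 (6.854e-06), with means of 7.14, 2.62 and 5.35 in replicates 1, 2 and 3, and the glial transporter Slc1a2 by -0.95 (0.001123). The replicate 2 means of Grin2b and Slc17a6 lie below 4, so these sizes are approximate too.

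Among 7 tested auxiliary and binding proteins of kainate receptors, 5 were higher in replicate 1 and 2 lower (median 0.56). C1ql3, a secreted synaptic protein, differed by 1.42 (8.178e-05), the scaffold Cask by 0.90 (0.0002716) and the auxiliary subunit Neto2 by 0.60 (0.0003941). The 2 lower were Grip2, with means of 3.86 in replicate 1 and 4.28 in replicate 2, and Klhl17 (9.95 and 10.30). Grip2 and C1ql3, whose replicate 2 mean was 4.23, lie near the level filter, so their sizes are approximate. For group I signalling and scaffolds, 3 of 12 were higher, a smaller share than the 33.9% over all genes, and 0 lower, with a median of -0.06. The 3 were Homer2 (2.27, 0.0004569) and Homer3 (0.79, 0.0001294), scaffolds that bind mGluR5, and Gnaq (0.55, 0.0002744), its G-protein α subunit. The replicate 2 means of Homer2 (3.47) and Homer3 (3.33) lie below 4, and Homer3 passed the level filter through replicate 1 alone, so both sizes are approximate. Of 15 group II and III signalling genes, 10 were higher and 1 lower (median 0.56), and Adcy5, an adenylyl cyclase inhibited by Gi, led with 2.33 (1.485e-06). The regulators of G-protein signalling Rgs17 and Rgs8 differed by 1.10 (2.743e-05) and 1.55 (0.0001023).

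Between replicates 2 and 3, the AMPA, NMDA and delta subunits had 5 of 8 lower and 1 higher (median -0.73), against 14.8% lower, 18.8% higher and a median of 0.03 over all genes. Grin2b was lower by 2.09 in replicate 2, a difference of -2.09 (adjusted p 0.0003087), and Slc17a6 differed by -2.73 (0.0002885). In the kainate auxiliary list 3 of 7 were lower and 1 higher (median -0.30), and in the group II and III list 5 of 15 and 2 (median -0.18). Group I signalling had 3 of 12 lower and 2 higher (median 0.08), and glutamate supply 1 of 9 lower and 2 higher (median -0.09). Between replicates 1 and 3, the median over all genes was 0.16, with 33.4% passing as higher in replicate 1 and 9.86% as lower. The numbers higher and lower in replicate 1 were 4 and 2 of 8 for the AMPA, NMDA and delta subunits (median 0.37), 2 and 1 of 7 for kainate auxiliary proteins (0.23), 4 and 1 of 12 for group I (0.16), 6 and 2 of 15 for groups II and III (0.37), and 3 and 1 of 9 for glutamate supply (0.18). The number higher lay within 1 gene of the share over all genes in each of these lists other than the AMPA, NMDA and delta subunits. The receptor subunit genes Grik1 (2.79 to 3.23), Grik4 (3.43 to 3.69) and Grm8 (2.34 to 2.84) were below the level filter in all 12 arrays.

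**Figure D3:**
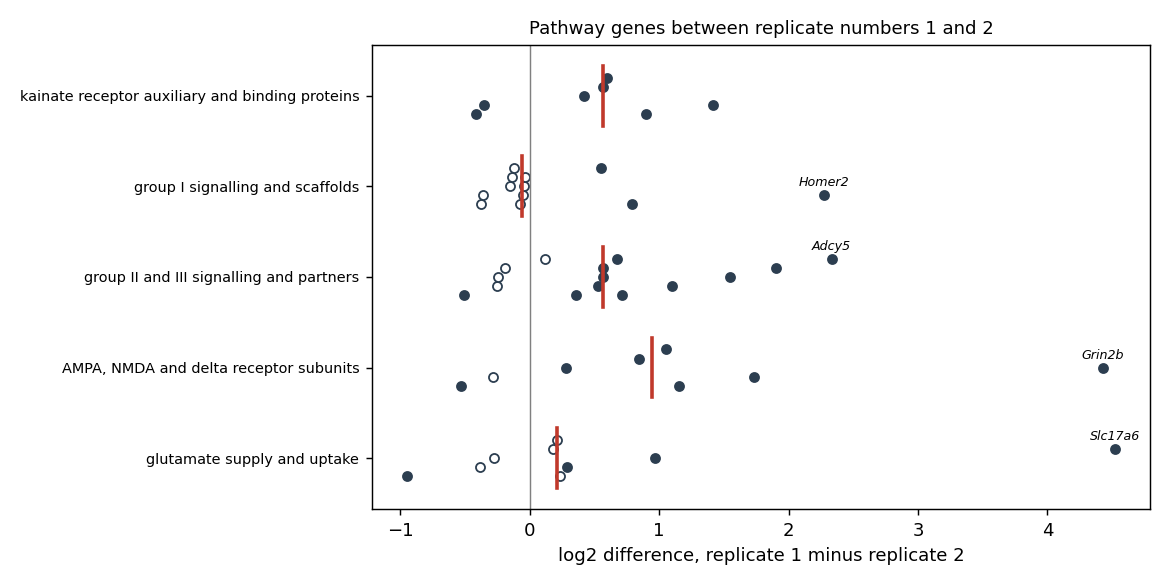
Log2 difference, replicate 1 minus replicate 2 (x), of each tested gene in 5 lists of glutamate signalling genes (rows), with filled points for genes that passed at an adjusted p of 0.05 and a red bar at each list's median. Grin2b and Slc17a6 lie beyond 4, and the median of the AMPA, NMDA and delta receptor subunits, 0.95, is the furthest to the right.

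The comparisons of the constructs asked whether a β4 splice variant put into lethargic granule cells changes these receptors. With limma and Benjamini-Hochberg adjustment, 0 of 10 member probe sets passed for β4a, β4b or β4e against eGFP, for the mean of the 3, for any pair of variants, or for any difference among the 4 groups. In all of these 0% of the 23044 probe sets passed. Shares at an unadjusted p under 0.05 were 1.58% for β4a, 2.63% for β4b, 0.36% for β4e and 2.03% for the mean against eGFP, and 0.243%, 0.664% and 0.759% for β4a against β4b, β4a against β4e and β4b against β4e, with 0 of 10 member sets among them in every one. With the replicate number as a block, 0.013% of all passed for β4a, 0.013% for β4b, 0% for β4e and 0.0217% for the mean, and 0% for the pairs and the 4 groups, with 0 of 10 members in each. At an unadjusted p under 0.05 the blocked fit had 15.3% of all for β4a, 19.3% for β4b, 5.54% for β4e, 17.5% for the mean, and 2.69%, 6.33% and 7.11% for the pairs in the same order. Among these were 2 of 10 member sets for β4a and 2 for β4e (both sets of Grm5), 3 for β4b (Grm5 and Grik5), 3 for the mean (Grm5 and Grik2), 0 for β4a against β4b or β4e, and 2 for β4b against β4e (Grik5 and the dimmer Grik2 set). The arrays of a variant and of eGFP overlapped for all 10 member sets with each variant, where 4.46% (β4a), 5.64% (β4b) and 2.16% (β4e) of all sets did not overlap.

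For Grm5 the group means were 8.28 ± 2.53 with β4a, 8.23 ± 2.90 with β4b, 8.55 ± 3.17 with β4e and 9.23 ± 2.41 with eGFP (SD, n = 3 each), with the replicate 2 array lowest in each group. Within replicates 1, 2 and 3, β4a minus eGFP was -0.62, -1.05 and -1.18, and β4b minus eGFP was -0.36, -1.52 and -1.14. For β4e it was 0.28, -1.47 and -0.86. Every difference of β4a and β4b lay below 0, while β4e replicate 1 lay above its eGFP array. The dimmer set gave -1.19, -1.36 and -0.57 for β4a, -1.04, -1.80 and -0.60 for β4b, and -0.00, -1.94 and -0.51 for β4e.

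The mean Grm5 difference was -0.95 for β4a (95% interval -5.45 to 3.54 without the block and -1.56 to -0.34 with it). It was -1.0 for β4b (-5.50 to 3.49 and -1.61 to -0.40) and -0.68 for β4e (-5.18 to 3.81 and -1.29 to -0.08). None passed: the limma adjusted p was 0.9999 for each variant without the block, and 0.2071 for β4a, 0.119 for β4b and 0.8783 for β4e with it. The mean of the 3 variants differed from eGFP by -0.88 with an adjusted p of 0.1371 in the blocked fit. The 3 comparisons share the same eGFP arrays, so their like signs are not separate observations. With 1 array left out of the blocked fit, or all 4 of replicate 2, the adjusted p ran from 0.1412 to 0.6122 for β4a, from 0.06188 to 0.4086 for β4b and from 0.4713 to 0.9999 for β4e. The summed astrocyte markers ran from 21961 to 39225 with β4a, from 24713 to 47546 with β4b, from 26324 to 28409 with β4e and from 16107 to 29655 with eGFP. All 12 averaged above eGFP with each variant, by a median of 0.48, 0.61 and 0.46 for β4a, β4b and β4e, though 0 were called. Over all genes the medians were 0.03, 0.04 and 0.03. Of 9 oligodendrocyte markers, 8, 9 and 8 averaged above eGFP, by medians of 0.07, 0.22 and 0.11, against 56.7%, 59.1% and 60.6% of all genes. Of 4 tested interneuron markers, 3 averaged below eGFP with each variant (medians -0.16, -0.20 and -0.02). Of 10 granule markers, 8, 7 and 5 averaged below eGFP (medians -0.09, -0.05 and -0.03). The part of these marker shifts in the Grm5 differences was not tested.

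Grik2 averaged 11.29 ± 0.29 with β4a, 11.33 ± 0.28 with β4b, 11.28 ± 0.40 with β4e and 11.47 ± 0.29 with eGFP. All 9 within-number differences were below 0, from -0.31 to -0.09. As they share the same eGFP arrays, their like signs are not separate observations. The means were -0.19, -0.15 and -0.20 for β4a, β4b and β4e. In the blocked fit their adjusted p was 0.3598, 0.4066 and 0.8917, and the intervals, -0.39 to 0.02, -0.35 to 0.06 and -0.40 to 0.01, all held 0. The dimmer Grik2 set did not repeat the sign, at 0.04, 0.14 and -0.17. Grik5 stood at 4.00 ± 0.22 with β4a, 3.92 ± 0.16 with β4b, 4.24 ± 0.37 with β4e and 4.20 ± 0.17 with eGFP, and its within-number differences were -0.17, -0.26 and -0.17 for β4a, -0.41, -0.29 and -0.16 for β4b, and 0.28, -0.11 and -0.04 for β4e.

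Grik3 averaged 8.75 ± 0.63 with β4a, 8.68 ± 0.75 with β4b, 8.74 ± 0.55 with β4e and 8.89 ± 0.42 with eGFP. Its differences were above 0 in replicate 1 (0.10, 0.28 and 0.07 for β4a, β4b and β4e) and below 0 in replicates 2 and 3, the lowest being -0.59 for β4b in replicate 3. For Grm3 the levels were 5.09 ± 1.28 with β4a, 5.15 ± 0.89 with β4b, 5.30 ± 1.19 with β4e and 5.37 ± 1.38 with eGFP. Its within-number differences were of mixed sign for each variant, at -0.84, -0.15 and 0.15 for β4a, -0.78, 0.33 and -0.22 for β4b, and -0.25, 0.14 and -0.09 for β4e. Blocked 95% intervals were -0.48 to 0.19, -0.54 to 0.13 and -0.48 to 0.18 for Grik3, and -0.75 to 0.19, -0.70 to 0.25 and -0.54 to 0.40 for Grm3, in the order β4a, β4b and β4e.

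Grm4 stood at 10.19 ± 0.33 with β4a, 10.00 ± 0.39 with β4b, 10.22 ± 0.22 with β4e and 10.14 ± 0.22 with eGFP. It was above eGFP in all 3 replicates with β4e (0.16, 0.05 and 0.03), and its blocked intervals were -0.21 to 0.31 for β4a, -0.40 to 0.12 for β4b and -0.18 to 0.34 for β4e. Mean differences of Grm2 were 0.01, -0.06 and 0.01 for β4a, β4b and β4e, and those of Grm7 -0.02, 0.07 and -0.06. Counting over the 10 member sets, the 3 within-number differences were all below 0 for 4 with β4a, 4 with β4b and 2 with β4e, against 16.4%, 18.1% and 12.4% of all tested sets. They were all above 0 for 0, 0 and 1, against 19.1%, 22.9% and 15.3%. The median difference over these 10 sets was -0.17 with β4a, -0.18 with β4b and -0.11 with β4e. Over 10983 genes, with 1 set each, the median was 0.03, 0.04 and 0.03. The 2 are not like for like, because Grm5 and Grik2 enter the member counts and medians with 2 sets each. All 3 variants were also set against the same eGFP arrays.

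**Figure D4:**
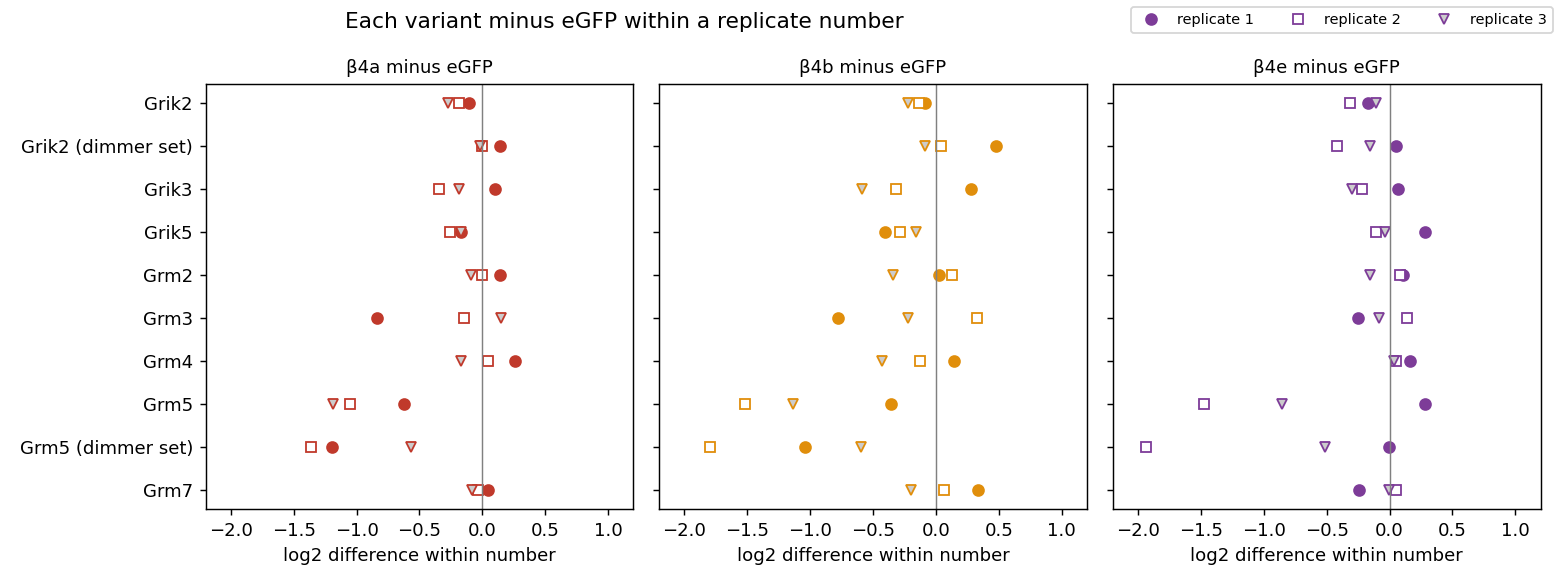
Log2 difference (x) between each variant and eGFP of the same replicate number for the 10 tested probe sets (rows), with 1 symbol per replicate number. The Grm5 points of β4a and β4b lie between -1.80 and -0.36, whereas those of Grm4 and Grm2 lie on both sides of 0 for β4a and β4b.

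Over all 10983 genes, 0% were called against eGFP for each variant without the block. With it, 0.0091% passed as lower for β4a, 0.0091% as higher and 0.0091% as lower for β4b, and 0% for β4e. The medians over all genes were 0.03, 0.04 and 0.03 for β4a, β4b and β4e. The lists of glutamate signalling genes gave 0 called genes against eGFP for each variant, with and without the block, which these shares lead to for short lists. Their medians without the block for β4a, β4b and β4e were 0.12, 0.18 and 0.12 for kainate auxiliary proteins (7 genes), -0.06, -0.06 and -0.03 for group I (12), 0.02, 0.03 and 0.06 for groups II and III (15), 0.12, 0.19 and 0.12 for glutamate supply (9), and -0.12, -0.05 and 0.04 for AMPA, NMDA and delta subunits (8).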

How the data were processed

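RNA (500 ng per sample) was labelled with biotin and measured on 12 arrays, 3 per construct. Per the submitters' processing notes the deposited log2 intensities were made by the authors with GCRMA, with the version not given in the sources used here. Intensities, 1.27 to 14.8, were taken as deposited. No spot-level data were used, so the number of arrays limits the precision. The platform annotation names 1 gene for 34945 probe sets, more than 1 for 932 and no gene for 9160; all 8 member symbols were found in the RefSeq table. The 64 control probe sets were left out.

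Linear models were fitted to the 12 arrays in R 4.3.3 by limma 3.58.1 with a mean for each group (8 degrees of freedom left) and moderated by eBayes. P-values are two-sided and Benjamini-Hochberg adjusted over 23044 probe sets, with a threshold of 0.05. Replicate numbers were compared with group as a term (6 degrees of freedom). The fits were tested on simulated data. With 200 probe sets changed by 1 on the log2 scale in β4a, the fit without the block recovered 15.5% and the fit with it 77.5%. For changes of 2 these were 76% and 98.5%. The lack of a call without the block therefore does not exclude a change of 1. Between replicates 1 and 2, 87% of changes of 1 were recovered. Whether numbers pair the arrays was checked on deviations from group means: all 18 pairs sharing a number correlated at 0.699 to 0.884 and other pairs at no more than 0.146, so a fit with the number as a block (6 degrees of freedom) is given beside the main one. It made 3 calls for β4a, 3 for β4b, 0 for β4e and 5 for the mean over all probe sets, against 0 each without it. Of the sum of squares, 76% lay between numbers and 10.5% between groups.

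Each gene's main probe set is the one with the highest mean. Lists used 1 tested probe set per gene, up to 4 examples per list were named by the smallest p, and the 2 closest genes were named by Pearson r. The members, lists and naming rule were chosen with earlier results of these data known. Alternatives were median centring, quantile normalization, a filter above 5 or none, the groups compared alone, no group term, the block, and leaving out each array. Leaving out all 4 arrays of replicate 2 was chosen after seeing the data.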

Additional observations from a re-analysis of the deposited data

How the results depend on the processing

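Counts of members called between replicate numbers were 7 for 1 against 2 (7 to 8 with 1 array left out, 5 with a filter above 5), 3 for 1 against 3 (2 to 4) and 8 for 2 against 3 (6 to 9). Median centring gave 5 for 1 against 3; it shifts the median of all tested probe sets in that contrast to 0.14, against 0.09 as deposited. Any difference among the numbers stayed at 9 with each array left out and was 6 with the filter above 5, which tests fewer members. Counts for each variant against eGFP, their mean, variant pairs and the 4 groups were 0 in every fit run, with or without the replicate block. For single genes the replicate block gave Grm5 adjusted p of 0.2071, 0.119 and 0.8783 for β4a, β4b and β4e and changed no member's call.

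Uncalled differences changed sign in several fits, and the cause was not tested. Quantile normalization turned Grik2 in 1 against 3 to -0.0313. With 1 array left out, that difference ran from -0.0243 to 0.0623 and that of Grm3 from -0.12 to 0.21. Against eGFP without the block, leaving out 1 array gave for β4a: Grik3 -0.44 to 0.19, Grm2 -0.0695 to 0.081, Grm3 -1.07 to 0.44, Grm4 -0.0781 to 0.23, Grm5 -2.34 to 0.48 and Grm7 -0.20 to 0.16. For β4b the ranges were -0.32 to 0.0154 (Grik2), -0.63 to 0.0757 (Grik3), -0.18 to 0.0096 (Grm2), -1.01 to 0.29 (Grm3), -0.27 to 0.0882 (Grm4), -2.39 to 0.64 (Grm5) and -0.20 to 0.25 (Grm7). For β4e they were -0.36 to 0.0317 (Grik2), -0.44 to 0.12 (Grik3), -0.16 to 0.21 (Grik5), -0.072 to 0.0785 (Grm2), -0.85 to 0.62 (Grm3), -0.0276 to 0.21 (Grm4), -2.07 to 1.10 (Grm5) and -0.24 to 0.0654 (Grm7). The extremes for Grm5 came from fits without a replicate 2 array.

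With the replicate block, uncalled differences changed sign as follows. Without eGFP replicate 1 they were Grm2 -0.0363 and Grm4 -0.0505 for β4a, and Grm2 -0.0387, Grm3 0.1491 and Grm4 -0.0128 for β4e. Without eGFP replicate 2 Grm2 was -0.0268 for β4a and -0.0292 for β4e, and without eGFP replicate 3 Grm7 was 0.0193 for β4a and Grm2 0.0295 for β4b. Leaving out β4a replicate 1 gave Grm2 -0.0207 and Grm4 -0.0025 for β4a, β4a replicate 2 gave Grm7 0.0012, and β4a replicate 3 gave Grm2 -0.0056. Leaving out β4b replicate 1 gave Grm7 -0.0843 and β4b replicate 3 gave Grm2 0.030 for β4b. Leaving out β4e replicate 1 gave Grik5 -0.0897 and Grm7 0.0819, and β4e replicate 3 gave Grm3 0.0145 for β4e. Without all arrays of replicate 2, Grm2 was -0.0254 for β4e.

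Grik5, Grm2, Grm7 and the dimmer Grik2 set lie near the level filter, where background limits the values.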
